A study of Mus musculus with 12 samples.

Results

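The secreted and membrane-bound enzymes that cut the extracellular matrix, together with their inhibitors, were followed across sorted cells of the mouse liver. They were taken by symbol: every row of the gene table named Adamts, Adamtsl, Mmp or Timp followed by a number and, where present, 1 letter. The rule found 51 genes of the 54227 in the table: 23 matrix metalloproteinases (MMP), 19 ADAMTS proteases, 5 ADAMTS-like genes and 4 tissue inhibitors of metalloproteinases (TIMP). Livers of C57Bl/6 mice carrying the Sox9EGFP reporter transgene, fasted for 16 h, were dissociated and sorted by EGFP brightness into 4 populations, here called neg, sub (GFPsublow in the protocol), low and high. Each population has 3 libraries of 12000 cells, 12 in all, all of untreated transgenic mice, whose age and sex the labels do not give. The populations are gates on brightness rather than purified cell types, and the labels do not say whether a library came from 1 animal. Total RNA was sequenced, and values are normalised counts, so that a gene's value can be compared between libraries but between genes only per length of transcript.

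MMPs are zinc proteases made as inactive proenzymes that cut collagens, gelatin, laminin and other matrix proteins, and several are anchored in the cell membrane. ADAMTS enzymes are their secreted relatives with thrombospondin repeats, among them enzymes that cut proteoglycans such as versican and enzymes that trim the ends of procollagens. ADAMTS-like proteins share the repeats but have no protease domain. TIMPs bind the active site of these enzymes, and TIMP3, which itself sticks to the matrix, blocks both MMPs and several ADAMTS enzymes. In the liver, stellate cells and portal fibroblasts are known for making matrix, its proteases and TIMPs. SOX9 is a transcription factor of the bile duct epithelium.

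The libraries held 8775387 to 15535588 reads as recovered from the deposited values. Sox9 read 0.7, 0 and 0 in neg, while sub ranged over 3707 to 6653, low over 8838 to 17140.4 and high over 11794 to 13969. It thus ordered neg, sub and the brighter gates as labelled. Low and high overlapped, and the highest library was in low, so Sox9 does not tell these labels apart. Summed values of 8 biliary markers ran from 21.2 to 412 in neg, where Epcam, Spp1, Pkhd1 and Cftr were listed at 0, and from 19770 to 35543, 65145 to 90170 and 61339 to 68357 in sub, low and high. The 8 hepatocyte markers summed to 395 to 793 (neg), 4841 to 7902 (sub), 14730 to 22209 (low) and 18248 to 22570 (high), most of it Alb and Ahsg in sub, low and high, while Apoa1 had its highest mean in neg (411, against 53.5 in high). Summed values of 10 endothelial markers ran from 99975 to 145320 (neg), 32159 to 37507 (sub), 756 to 2011 (low) and 555 to 899 (high). For 10 stellate markers the ranges were 9997 to 13543, 14889 to 17464.5, 635 to 1931 and 489 to 1652. Low-abundance values need care, because 10 of 20 genes that every cell uses were listed at 0 in at least 1 library.

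Of the 51 genes, 36 were above 0 in at least 1 library and 35 reached a mean of 10 normalised counts over the 12 libraries, the limit for testing. The 36th was Mmp24, a membrane-type MMP. The other 15 were listed at 0 in all 12 libraries: Timp4, the gelatinase Mmp9, the collagenases Mmp1a, Mmp1b, Mmp8 and Mmp13, the stromelysin Mmp10, Mmp20, Mmp21, Mmp23, Mmp27, Adamts8, Adamts19, Adamts20 and Adamtsl5. Only 6 genes were above 0 in all 12 libraries: Timp2, Timp3, Mmp14, Adamts1, Adamts9 and Adamtsl4. The remaining 30 had both zeros and values above 0. The 6 held 75.0% of the 51 genes' summed mean for neg, 77.9% for sub, 88.6% for low and 85.1% for high. Of the 612 values of the 51 genes, 383 were at 0, 180 of them from the 15 genes never above 0, 20 held 1 to 10 reads, 27 held 11 to 100 and 182 held more than 100. Of the 10 MMP genes that lie side by side on chromosome 9 (chr9:7272514-7699585, GRCm38), 7 were listed at 0 throughout, and the 3 with any value were Mmp3, Mmp7 and Mmp12.

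**Figure D1:**
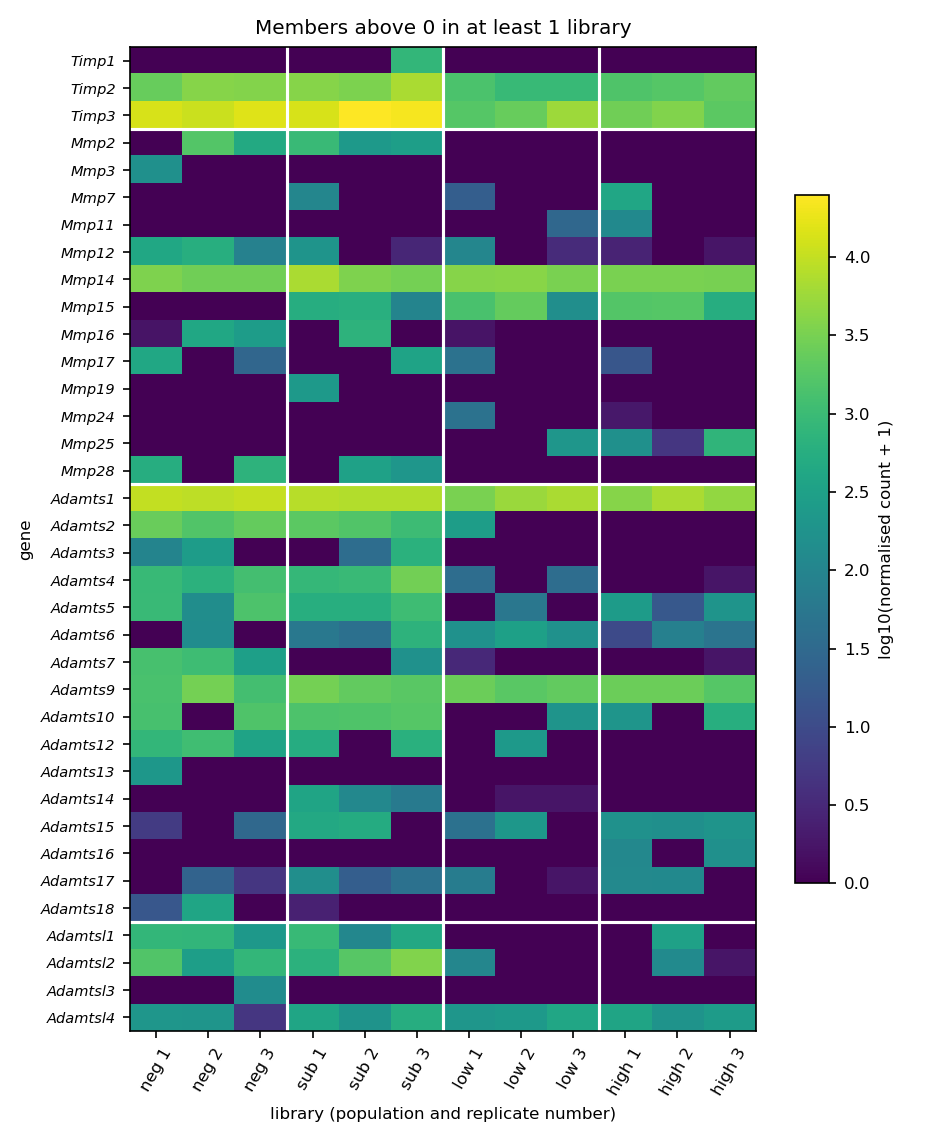
Values of the 36 genes above 0 in at least 1 library, as log10(normalised count + 1), with genes in rows by family and the 12 libraries in columns by population. The 6 genes above 0 in all 12 libraries form the unbroken rows, while the Mmp2 row is at 0 in all 6 low and high libraries and the Adamts2 row in 5 of them.

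Summed over the 51 genes, the normalised counts came to 41658 ± 2235 for neg, 51352 ± 4942 for sub, 17798 ± 2220 for low and 18386 ± 2083 for high (SD, n = 3). These sums are 0.391 ± 0.024, 0.46 ± 0.0505, 0.158 ± 0.0165 and 0.167 ± 0.02 percent of all values (SD, n = 3). Every neg and sub library lay above every low and high library. In bulk samples such as these, fewer cells of a type and less RNA per cell cannot be told apart.

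Of the 4 families, 3 had this order and the MMPs did not. The TIMP sum came to 16574 ± 1984.5 for neg, 25165 ± 6449 for sub, 4294 ± 1922 for low and 4620 ± 656 for high (SD, n = 3). The ADAMTS sum was 18437 ± 925, 17179 ± 1756, 8039 ± 1444 and 8352 ± 1193 in the same order. ADAMTS-like genes summed to 1701 ± 824, 2904.5 ± 1523, 315 ± 88.1 and 422 ± 196. For each of these 3 families the libraries of neg and sub did not overlap those of low and high. MMPs, at 4947 ± 531, 6104 ± 2637, 5150 ± 1398.5 and 4992 ± 597, overlapped in all 4 populations. Most of this sum came from the membrane-type MMPs, with means of 3413, 5256, 5098 and 4818. The gelatinases had mean sums of 708, 497, 0 and 0, and the stromelysins, matrilysin and elastase 409, 97.2, 52 and 173. As a share of the 51 genes' sum, MMPs made up 11.9 ± 1.89% for neg, 12.3 ± 6.42% for sub, 29.6 ± 10.1% for low and 27.3 ± 3.76% for high. Of the same sum, Timp3 alone held 31.6%, 38.9%, 17.4% and 15.1% in this order, beside 39.7%, 48.6%, 23.6% and 25.1% for all TIMPs. Adamts1 held 23.1%, 15.5%, 28.7% and 28.4%, beside 44.3%, 33.6%, 45.0% and 45.4% for all ADAMTS genes. Mmp14 averaged 3033, 4492, 3750 and 3197 counts within the MMP sum. The TIMP, ADAMTS and MMP sums thus rest in large part on single genes, and they add transcripts of unlike length.

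**Figure D2:**
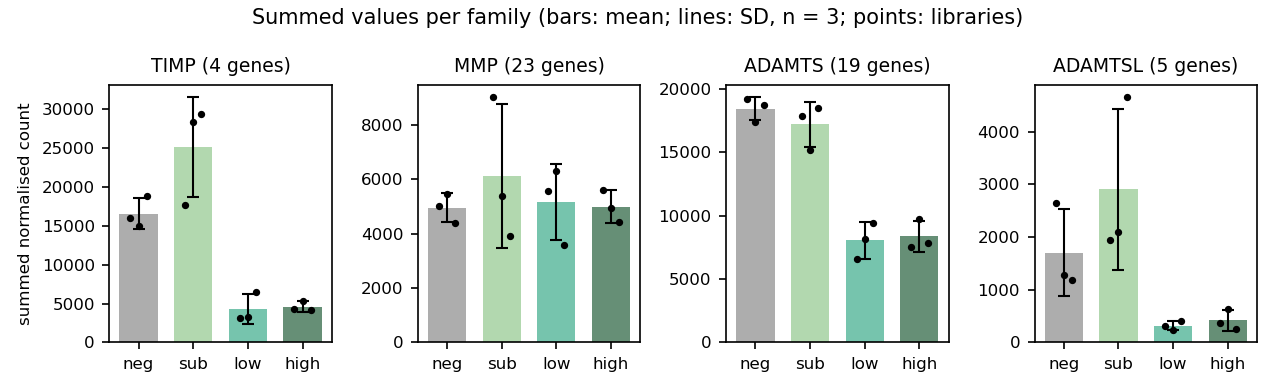
Summed normalised counts of each family per population; bars are means, lines are SDs of 3 libraries and points are libraries. TIMP, ADAMTS and ADAMTS-like sums are lower in low and high than in neg and sub, and the MMP sums overlap.

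Per kilobase of exon, the most abundant of the 51 genes in neg were Adamts1 at 1819 ± 123 and Timp3 at 1620.0 ± 243 normalised counts per kb (SD, n = 3). Timp3 led in sub at 2468 ± 709.5, followed by Adamts1 at 1488 ± 83.8. In low and high, Adamts1 came first at 981 ± 335 and 992 ± 268, ahead of Mmp14 at 629 ± 78.6 and 536 ± 13.9. Timp2 stood at 867 ± 215, 1229 ± 487, 278 ± 70.7 and 465 ± 80.3 per kb in neg, sub, low and high. Mmp15 ranked 5 in low and high, at 232 ± 196 and 243 ± 121 per kb and was listed at 0 in neg.

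Each of the 6 pairs of populations was compared with limma on log2(normalised count + 1), with Benjamini-Hochberg adjustment over the 16128 genes tested and a threshold of 0.05. Between sub and neg, 1 of the 35 tested genes passed (2.86%), against 1.19% of all genes. Between low and neg, 5 of 35 passed (14.3%), against 4.69% of all genes, and 2 of 35 passed with a block for replicate number. High against neg gave 5 of 35, with 4.69% of all genes. The count was 1 of 35 for low against sub (0.744% of all genes) and 3 of 35 for high against sub (0.986% of all genes). Mmp15 was the only gene of the 51 to rise in any comparison, and Timp3, Adamts2, Adamts4, Adamts7 and Adamtsl1 were those that fell. Median log2 differences over the 35 were 0.27 for sub minus neg, -2.37 for low minus neg, -2.26 for high minus neg, -1.89 for low minus sub and -1.79 for high minus sub, where the medians over all genes tested were 0, 0, 0.13, 0 and 0.20. These medians describe the genes that reached the mean limit, which many did through neg or sub alone.

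The counts moved with the libraries used. Between sub and neg, leaving out any 1 of the 12 libraries gave 2 genes, or 3 without sub 3. Between low and neg the count was 2 without neg 2, low 3 or high 1, and 3 without neg 3, low 2 or high 3. Between low and sub it was 0 without sub 2, 4 without neg 1, 3 without neg 2, neg 3 or low 1, and 2 without sub 1, sub 3, low 2 or any high library. Between high and sub the count was 2 without sub 2, sub 3, high 1 or high 3; without sub 2 or sub 3 only 1 of the 3 original calls, Timp3, was among them.

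Between high and low, limma called none of the 35 genes, and 0% of all genes. At an unadjusted p under 0.05 there were 2 of the 35, Adamts5 and Adamts16, and 684 of all genes. edgeR on the recovered reads also called none of the 51 in this pair and 34 genes in all, and DESeq2 called 5 and 684. Among the 5 were Adamts2 and Adamtsl1, which within these populations were above 0 only in low 1 and only in high 2, respectively. Low and high libraries did not overlap for 2 of the 35 genes (5.71%), against 7.34% of all genes tested. Timp2 spanned 918 to 1400.4 in low but 1538.5 to 2154 in high, a log2 difference of 0.76 ± 0.49 (SE, limma adjusted p = 1). Adamts6, another ADAMTS protease, spanned 166 to 319 in low but 8.7 to 82.9 in high, a difference of -2.60 ± 2.46 (limma adjusted p = 1).

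**Figure D3:**
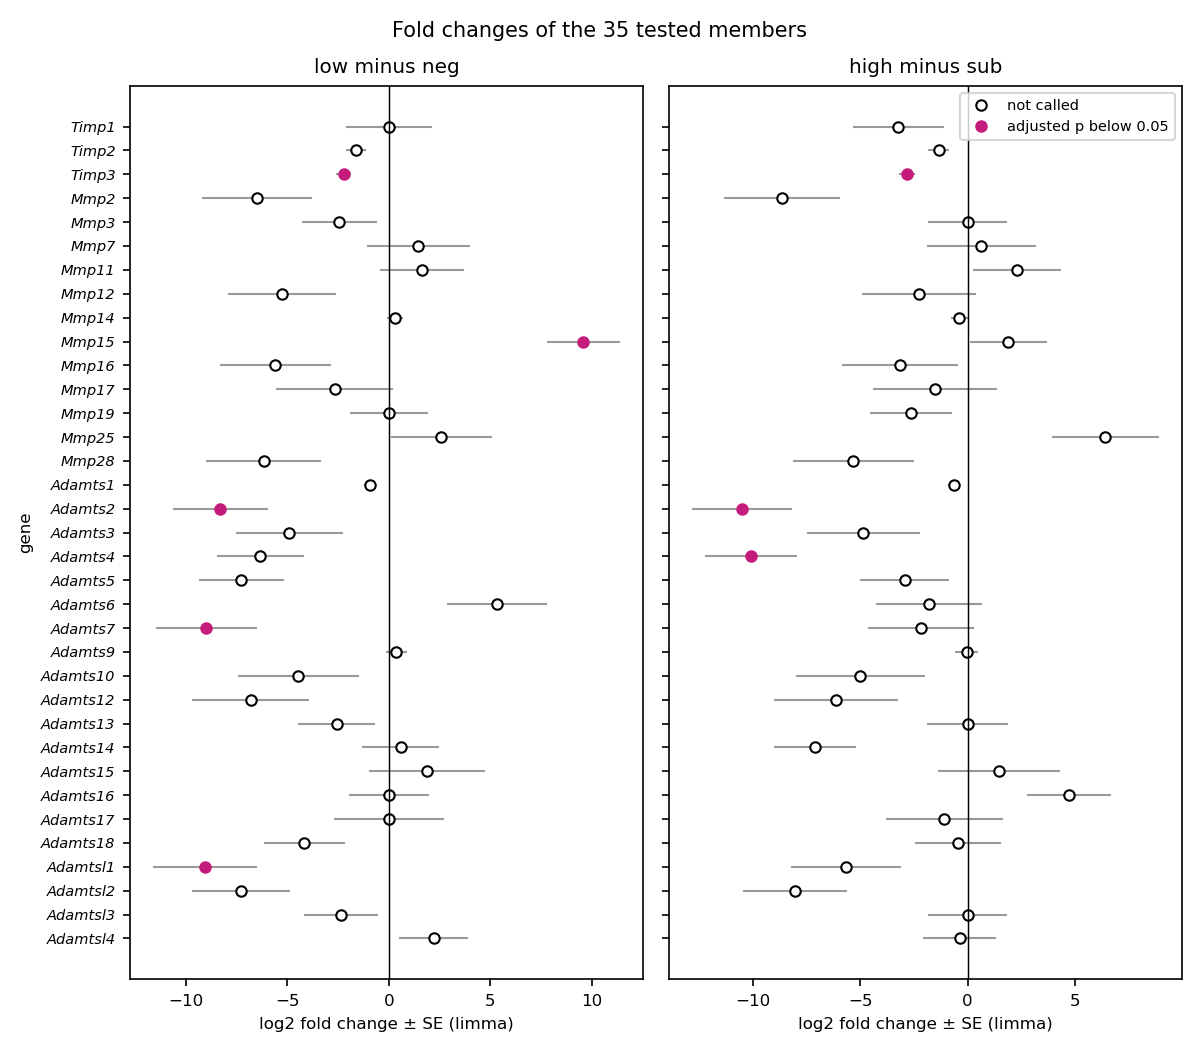
Log2 fold change ± SE from limma for the 35 tested genes, low minus neg on the left and high minus sub on the right; filled points passed the adjusted threshold of 0.05. Timp3, Mmp14, Adamts1 and Adamts9 have short error lines, and genes with zeros in some libraries have long ones.

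The DNA just upstream of the start of 3 genes is shown because they were the TIMP, the MMP and the ADAMTS gene with the smallest adjusted p between high and neg. The windows run from 250 to 51 bases before the RefSeq start (GRCm38.p6), on the gene's own strand. They lie at chr10:86300162-86300361 for Timp3, chr8:95352046-95352245 for Mmp15 and chr11:50601835-50602034 for Adamts2, all on the plus strand. Capitals mark the GC box GGGCGG on either strand.
Timp3: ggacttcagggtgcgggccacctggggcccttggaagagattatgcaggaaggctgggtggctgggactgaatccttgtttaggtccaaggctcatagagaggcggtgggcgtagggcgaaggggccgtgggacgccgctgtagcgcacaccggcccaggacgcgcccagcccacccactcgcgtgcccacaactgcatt
Mmp15: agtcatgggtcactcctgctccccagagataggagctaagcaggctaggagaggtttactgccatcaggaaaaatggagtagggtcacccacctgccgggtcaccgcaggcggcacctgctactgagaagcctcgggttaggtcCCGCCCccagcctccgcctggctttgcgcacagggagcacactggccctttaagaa
Adamts2: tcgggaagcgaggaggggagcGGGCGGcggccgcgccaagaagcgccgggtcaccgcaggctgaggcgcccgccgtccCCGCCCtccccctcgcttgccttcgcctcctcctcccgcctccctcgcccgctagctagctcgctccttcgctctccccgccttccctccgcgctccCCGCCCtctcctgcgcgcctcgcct

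The Adamts2 window holds 28 CpG dinucleotides and 3 GC boxes, beginning 229, 172 and 75 bases before the start. At least as many CpG were found in 3.0% of the 32851 windows of the same length in the RefSeq table, whose median is 4. The Mmp15 window holds 7 CpG and 1 GC box 106 bases before the start, and the Timp3 window 13 CpG and no GC box; as many CpG were found in 38.3% and 22.1% of windows. GGGCGG occurred in 24.6% of all windows. The AP-1 motif TGANTCA, searched on both strands like the others, occurred in 5.6% of all windows. Of the SOX motifs, the form ACAAAG occurred in 13.6%, while the other form, ACAATG, was found in 8.9%. The TATA box, spelled TATAAA, was in 9.1% of windows. None of these was in the 3 shown. A match is a run of letters and not a measured binding site. In the RefSeq table, 36 of the 51 genes had a window.

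Among the inhibitors, Timp3 fell in low and high against both neg and sub. Its libraries read 13552, 11059 and 14974 in neg, 13725, 24990.0 and 21594 in sub, 1708, 2345 and 5582 in low, and 2825, 3620.2 and 1976.5 in high. The lowest of the 6 neg and sub libraries thus exceeded the highest of the 6 low and high libraries. Against neg, the low mean was 4.11-fold lower (log2 difference -2.22 ± 0.37 SE, limma adjusted p = 0.000979) and the high mean 4.70-fold lower (-2.26 ± 0.37, adjusted p = 0.000742). Against sub, the low mean was 6.26-fold lower (-2.79 ± 0.37, adjusted p = 0.00104) and the high mean 7.16-fold lower (-2.84 ± 0.37, adjusted p = 0.000527). Sub and neg overlapped (0.57 ± 0.37, adjusted p = 0.703), as did high and low (-0.05 ± 0.37, adjusted p = 1). The sign of this last difference turned without low 3 (0.44) or high 3 (0.18). Without sub 2, the low against sub difference was -2.61 with limma adjusted p = 0.0557. In fits restricted to the 2 populations compared, the log2 differences stayed at -2.22, -2.79 and -2.84 but missed the threshold for low against neg, low against sub and high against sub (adjusted p = 0.13, 0.305 and 0.102), and high against neg passed.

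Timp3 (chr10:86300372-86349506, plus strand) lies within the gene Syn3 on the opposite strand. How strand was used in counting is not given. Syn3 was at 0 to 1.2 in neg and sub and above 1.2 only in low 1 (246) and high 2 (440.6). Its part in the Timp3 values was not tested.

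Timp3 was low in the libraries where the sums of stellate, endothelial, and fibroblast and smooth muscle markers were low. In the plot of Timp3 against these sums, the 6 low and high libraries lie at low sums and the 6 others at higher ones. Stellate markers Lrat, Colec11 and Hgf were listed at 0 in both low and high, and of the endothelial markers Erg was at 0 in both. The stellate markers did not all move alike. Rgs5 averaged 829, 1783, 845 and 573 in neg, sub, low and high, and was the largest part of the low sum. For sub minus neg, 6 of the 10 log2 differences were above 0 and 4 below. Lrat (means of 458 and 47.3 in neg and sub), Hgf (956 and 382) and Ecm1 (2491 and 665) were lower in sub. The 8 fibroblast and smooth muscle markers summed to 3973 to 10694 (neg), 4420.3 to 11173 (sub), 363 to 680.5 (low) and 205 to 509 (high). Most of the mean sum in each population was Myh11, at 6048, 5989, 394 and 222 in neg, sub, low and high. Within this list, Cnn1 averaged 140.5, 0, 146 and 67.6 in these populations, and Pi16 18.7, 461, 0.8 and 51.9. From neg to sub, the endothelial sum was lower without overlap, and Timp3 overlapped, with a mean 1.52-fold higher in sub that did not pass the test. The 8 Kupffer cell and macrophage markers did not move together: they summed to 0 to 575.5 (neg), 413 to 574.5 (sub), 743 to 1220 (low) and 519 to 1526 (high), but most of the sum in low and high was Csf1r (means of 872.5 and 729). Cd68 averaged 198.5 for neg, 344 for sub, 24.2 for low and 79.6 for high, Adgre1 and Marco were listed at 0 in low and high, and C1qa in all 12 libraries. The same sums stand beside each fall in low and high described below. The part these cells play in these differences was not tested.

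**Figure D4:**
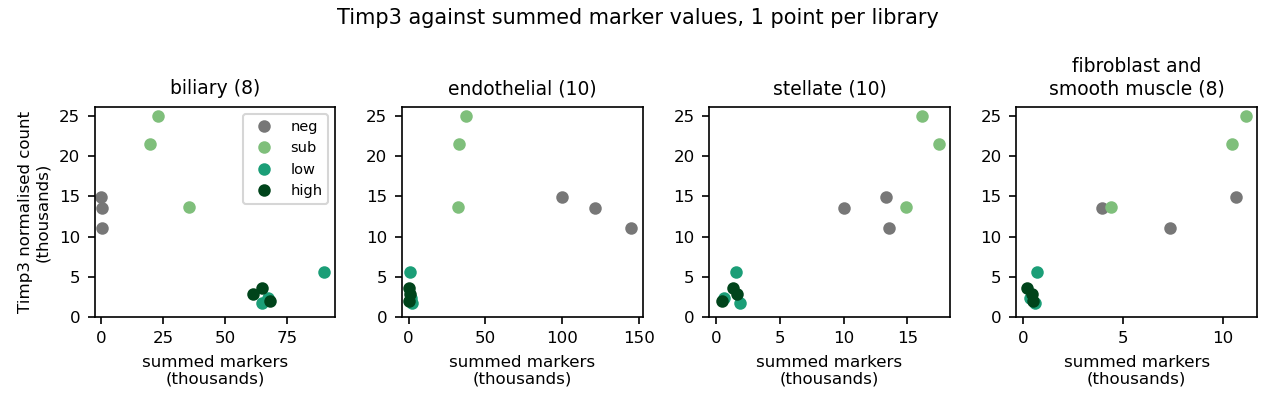
Timp3 normalised count (vertical axis) against the summed normalised counts of 8 biliary, 10 endothelial, 10 stellate and 8 fibroblast and smooth muscle markers, 1 point per library. Low and high libraries sit at low Timp3 and low endothelial, stellate, and fibroblast and smooth muscle sums. Sub libraries sit at high Timp3 with stellate sums of 14889 to 17464.5.

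Timp2, an inhibitor that also helps MMP14 activate pro-MMP2, also had lower values in low and high, without passing the test. Its libraries read 2413, 3905 and 3817 in neg, 4014, 3399 and 6950.3 in sub, 1400.4, 918 and 929 in low, and 1538.5, 1745 and 2154 in high. Low and high did not overlap neg or sub. The log2 difference was -1.64 ± 0.49 for low minus neg (SE, limma adjusted p = 0.063) and -2.10 ± 0.49 for low minus sub (adjusted p = 0.051). For high it was -0.88 ± 0.49 against neg (adjusted p = 0.402) and -1.34 ± 0.49 against sub (adjusted p = 0.288). Both low differences are near the threshold: against sub it passed in 10 of 21 alternatives, among them DESeq2 and the omission of any neg or high library or low 1 (adjusted p from 0.000141 to 0.293 over all 21), and against neg in 7, among them DESeq2 and the omission of neg 1, low 1 or any sub library (adjusted p from 0.00539 to 0.24). High against sub passed with DESeq2 alone (adjusted p = 0.0343). Timp2 (chr11:118301069-118355740, minus strand) overlaps Cep295nl on the same strand, which read 0 to 999 (neg), 609 to 1188 (sub), 0 to 315 (low) and 154 to 452 (high). The part of shared reads in the Timp2 values was not tested. Timp1, the inhibitor best known from fibrotic liver, was at 821 in sub 3 and listed at 0 in the other 11 libraries. Of the 3 inhibitors tested, Timp3 alone passed, 4 times, where 4.69%, 4.69%, 0.744% and 0.986% of all genes passed (low and high against neg, then against sub).

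Among the membrane-type MMPs, Mmp15, which encodes MT2-MMP, rose in all 3 EGFP-bearing populations against neg. It was listed at 0 in the 3 neg libraries and read 552, 588.5 and 93.8 in sub, 1345, 2257 and 148 in low, and 1651, 1726 and 559 in high. Every library with EGFP was above every library without it, and the replicate numbered 3 was the lowest within each of sub, low and high. The log2 differences from neg were 8.29 ± 1.81 for sub (SE, limma adjusted p = 0.0232), 9.58 ± 1.81 for low (adjusted p = 0.00342) and 10.19 ± 1.81 for high (adjusted p = 0.00169); because neg is at 0, their size depends on the constant added before taking logs. The sub and low calls were lost when only the populations compared were fitted (adjusted p = 0.652 and 0.0986), and the high call was kept under all 21 alternatives. The biliary and hepatocyte sums given above were also higher in sub, low and high than in neg, though not for every marker (Apoa1), and their part in this was not tested. Mmp15 lies at chr8:95352268-95375080 on the plus strand.

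Mmp14, which encodes MT1-MMP, the main cell-surface activator of pro-MMP2, was the most abundant MMP per kilobase in every population. It read 3463, 2805.5 and 2832 in neg, 6974, 3543.5 and 2957.5 in sub, 3989, 4050.3 and 3210.3 in low, and 3261, 3225 and 3104 in high. All populations overlapped, and no difference passed the test: the 6 log2 differences ran from -0.39 to 0.47, each with an SE of 0.39 (limma adjusted p from 0.72 to 1). Mmp14 lies at chr14:54431612-54445364 on the plus strand.

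Mmp25, a leukocyte membrane-type MMP, was listed at 0 in neg and sub, stood at 206 in low 3 alone, and read 160.1, 4.0 and 751 in high. The difference between high and neg was 6.41 ± 2.49 on the log2 scale (SE, limma adjusted p = 0.176). It passed with DESeq2 (adjusted p = 4.6e-08), as did high against sub and low against neg and sub (8.61e-08, 5.87e-07 and 8.68e-07). With neg and sub at 0, the size of these DESeq2 log2 differences, 22.56 to 24.75, is not measured. Both low calls rest on low 3 alone. Neutrophil markers, 6 in all, summed to 34.5 to 1072.5 in neg, 80.1 to 358 in sub, 0 to 0.7 in low and 31.9 to 369 in high. Ly6g, Elane and S100a9 were at 0 throughout, and S100a8 read 31 in high 3 alone. Csf3r and Cxcr2 averaged 144.9 and 329.7 in neg against 42 and 106.3 in high. The part of these cells in the Mmp25 values was not tested. Mmp16 read 0.7, 417 and 272 in neg and 704 in sub 2, and was otherwise at 0 or 0.7. Mmp17 was above 100 in neg 1 and sub 3 alone, at 421.5 and 355.

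Mmp2, the gelatinase that digests basement membrane collagen, had no counts in low and high. It read 0, 1659.5 and 465.5 in neg, 973, 231 and 286 in sub, and was listed at 0 in all 6 libraries of low and high. All 3 sub libraries were above these, while neg 1 was not. The log2 difference from sub was -8.65 ± 2.71 both for low (SE, limma adjusted p = 0.179) and for high (adjusted p = 0.17), so neither passed, but both did with DESeq2 (adjusted p = 0.000196 and 0.000247) and without neg 1. Mmp7, the matrilysin of injured epithelia, read 104 in sub 1, 19.3 in low 1 and 394 in high 1 and was at 0 in the other 9 libraries; all 3 values belong to libraries numbered 1. Mmp12, the macrophage elastase, read 416, 565 and 85.0 in neg, 186, 0 and 2.0 in sub, 105, 0 and 2.5 in low, and 1.7, 0 and 0.8 in high (high minus neg -7.32 ± 2.66, limma adjusted p = 0.14). That difference passed with DESeq2 (adjusted p = 0.00641). Mmp28 was above 0 in neg 1 (542), neg 3 (708), sub 2 (325) and sub 3 (201.5) alone. The remaining MMPs that were tested, Mmp3, Mmp11 and Mmp19, passed in no comparison.

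Of the 7 proteoglycan-cleaving ADAMTS genes, 5 were tested and 1 fell, in high against neg and against sub (4.69% and 0.986% of all genes passed there), and none passed in low. This was Adamts4, an aggrecanase. It read 924, 673 and 1215 in neg, 858, 938 and 2929.5 in sub, 36.4, 0 and 37.0 in low, and 0, 0 and 0.8 in high, where 0.8 stands for a single read. All low and high libraries were at or below 37.0, under the lowest neg or sub library. The log2 difference for high was -9.55 ± 2.14 against neg (SE, limma adjusted p = 0.012) and -10.09 ± 2.14 against sub (adjusted p = 0.028). For low it was -6.34 ± 2.14 against neg (adjusted p = 0.11) and -6.89 ± 2.14 against sub (adjusted p = 0.174), both of which passed with DESeq2 alone (adjusted p = 5e-04 and 6.01e-05). Leaving out sub 2 or sub 3 ended the call against sub, with adjusted p of 0.06 and 0.0567. Adamts4 lies at chr1:171250421-171260637 on the plus strand.

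Adamts1, the versican-cleaving protease that led the family per kilobase, was spread over all populations with smaller differences. It read 9693, 8968 and 10273 in neg, 8404, 7640.0 and 7629 in sub, 3314.5, 5445 and 6843 in low, and 4044, 6818 and 4918 in high. Neg was above sub, and sub above low and high, without overlap. The log2 difference from neg was -0.29 ± 0.28 for sub (SE, limma adjusted p = 0.751), -0.95 ± 0.28 for low (adjusted p = 0.0637) and -0.91 ± 0.28 for high (adjusted p = 0.0789), so none passed. With columns scaled to equal totals the low difference passed at an adjusted p of 0.0393, and it also passed with a mean of at least 100; the high difference passed without low 1 (0.048). Adamts1 (chr16:85793827-85803113) and Adamts5 (chr16:85856173-85901828) are neighbours on the minus strand.

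Adamts5, the other main aggrecanase, read 937, 144 and 1504 in neg, 566, 580.5 and 1079 in sub, 0, 53.5 and 0 in low, and 261, 15.2 and 186 in high. Low did not overlap neg or sub, with log2 differences of -7.28 ± 2.09 (SE, limma adjusted p = 0.0517) and -7.55 ± 2.09 (adjusted p = 0.115). The first passed in 5 of 21 alternatives, among them DESeq2 and the omission of low 2 or high 2 (adjusted p from 0.00825 to 0.303 over all 21), and the other with DESeq2 or without low 2 (from 0.0167 to 0.465). Adamts9, a versicanase, did not follow EGFP: it read 1366, 2986.5 and 1235 in neg, 3060, 2190.2 and 1895 in sub, 2620, 1907.5 and 2176 in low, and 2619, 2527 and 1728 in high. Its 6 log2 differences ran from -0.07 to 0.44 with an SE of 0.52 (limma adjusted p from 0.759 to 1). Adamts15 read 4.8, 0 and 29.9 in neg against 170, 156 and 188 in high, without overlap (4.92 ± 2.84, limma adjusted p = 0.424).

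The 3 procollagen N-propeptidases trim fibrillar procollagens before fibrils form. Adamts2, the enzyme of type I procollagen, fell in low and high against neg and in high against sub. It read 2475.5, 1601 and 2266 in neg, 1913, 1609 and 1029 in sub, 285, 0 and 0 in low, and was listed at 0 in all 3 high libraries. Low 1 was the only library of low or high with any read. The log2 difference was -8.30 ± 2.32 for low minus neg (SE, limma adjusted p = 0.0454), -11.02 ± 2.32 for high minus neg (adjusted p = 0.00753) and -10.52 ± 2.32 for high minus sub (adjusted p = 0.0346). Because high is at 0, the size of its differences depends on the added constant and the method. High minus neg was -8.70 with a constant of 5, -14.17 with edgeR and -25.75 with DESeq2. The size for low minus neg rests on low 1 and on the method: -11.02 without low 1, -6.94 without low 2 or low 3, -4.29 with edgeR and -4.48 with DESeq2. Low against sub did not pass (-7.80 ± 2.32, adjusted p = 0.15; 0.0125 without low 1). The call against neg was kept for high under all 21 alternatives, but for low it was lost in 17. Among these were a block for replicate number (limma adjusted p = 0.0523) and the omission of any single library other than low 1 (adjusted p from 0.0556 to 0.129). High against sub lost its call in 10, among them the omission of any neg, sub or high library (adjusted p from 0.0561 to 0.109). Adamts2 lies at chr11:50602084-50807573 on the plus strand.

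Adamts14 read 367, 113 and 61.8 in sub, was listed at 0 in neg and high, and read 0, 0.8 and 0.8 in low. All sub libraries were above all others, and the log2 difference from neg was 7.11 ± 1.90 (SE, limma adjusted p = 0.0862), which did not pass. Leaving out any 1 library brought it under the threshold, with adjusted p as low as 0.0068 without sub 3. Adamts3, the third propeptidase, was listed at 0 in low and high and passed in no comparison. Per library, the 3 propeptidases summed to 1875 to 2572 (neg), 1738 to 2280.2 (sub), 0.8 to 285 (low) and 0 (high).

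**Figure D5:**
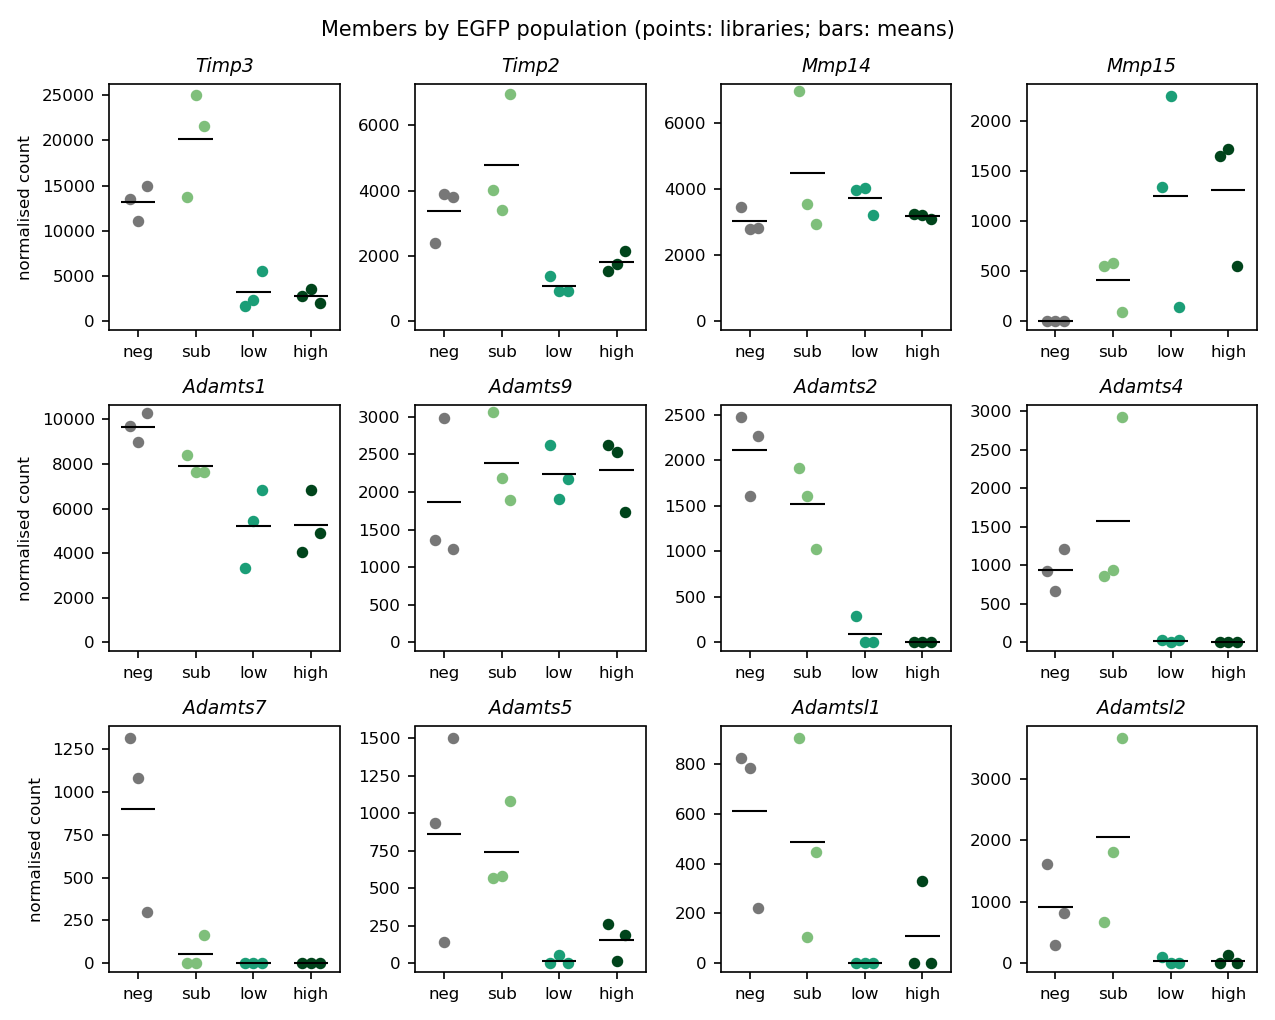
Normalised counts of 12 genes by population; points are libraries and bars are means. Timp3, Adamts2 and Adamts4 drop from neg and sub to low and high, Mmp15 starts at 0 in neg, and Mmp14 and Adamts9 overlap throughout.

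Of the other 9 ADAMTS genes, 8 were tested and Adamts7, known for cutting COMP in cartilage and vessel wall, fell in low and high against neg, where 4.69% of all genes passed in each. It read 1313, 1081 and 301 in neg, 0, 0 and 164 in sub, 2.2, 0 and 0 in low, and 0, 0 and 0.8 in high. Here, unlike for Adamts2, the sub libraries were also below every neg library, although the difference did not pass (-7.11 ± 2.48 SE, limma adjusted p = 0.279; 0.0207 without sub 3). The log2 difference from neg was -9.0 ± 2.48 for low (adjusted p = 0.042) and -9.27 ± 2.48 for high (adjusted p = 0.0363). These calls are near the threshold: they were lost in 14 and 8 of 21 alternatives, including edgeR (adjusted p = 0.25 and 0.181) and the omission of any low or any high library, respectively (adjusted p from 0.0746 to 0.115, and from 0.0819 to 0.105). With a block for replicate number the low call was lost and the high call kept (limma adjusted p = 0.0538 and 0.0464). Adamts7 (chr9:90163069-90208071, plus strand) overlaps Tbc1d2b on the opposite strand, which averaged 1074 for neg, 535 for sub, 387 for low and 490 for high; its part in the Adamts7 values was not tested.

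Adamts10, which binds fibrillin, read 1322, 0 and 1553 in neg, 1481, 1509 and 1714 in sub, 0, 0 and 191.5 in low, and 199, 0 and 580 in high. Sub was above low and high without overlap, and the difference did not pass (low minus sub -8.08 ± 3.00 SE, limma adjusted p = 0.309). Adamts12 read 817, 1126 and 349 in neg, 535, 0 and 621 in sub, 229 in low 2 alone, and was listed at 0 in high (high minus neg -9.42 ± 2.89, limma adjusted p = 0.0719). That difference passed with DESeq2 (adjusted p = 2.27e-14) and without sub 2. Adamts6 read 137 in neg 2 and 0 in the other neg libraries, 56.0, 41.2 and 696 in sub, 168, 319 and 166 in low, and 8.7, 82.9 and 49.0 in high. Low was above neg without overlap (5.33 ± 2.46, limma adjusted p = 0.294). Adamts13, the protease of von Willebrand factor that stellate cells are known to make, was above 0 in a single neg library.

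Of the 5 ADAMTS-like genes, 4 were tested and 1 fell, in low against neg (4.69% of all genes). Adamtsl1 read 825, 783 and 223 in neg, 904, 106.5 and 447 in sub, 0 in low and 0, 329.5 and 0 in high. It fell in low against neg (-9.04 ± 2.56 SE, limma adjusted p = 0.0484), a call lost in 15 of 21 alternatives, among them the omission of any neg, sub or low library or of high 1 (adjusted p from 0.0528 to 0.13). A block for replicate number also ended it (limma adjusted p = 0.0607). With low at 0, the size depends on the added constant and the method (-25.98 to -6.73 over the alternatives). Adamtsl2, which binds latent TGF-beta binding protein and fibrillin, read 1622, 295 and 816 in neg, 669, 1816 and 3665 in sub, 102, 0 and 0 in low, and 0, 128 and 0.8 in high. Neither low nor high overlapped neg or sub, and the 4 differences, from -8.46 to -6.89 with an SE of 2.42, did not pass (limma adjusted p from 0.103 to 0.146). Low against sub passed with DESeq2 (adjusted p = 0.0411), and low against neg without low 1 (limma adjusted p = 0.0444). Adamtsl4, a fibrillin partner, was above 0 in all 12 libraries, at 204, 193 and 3.9 in neg, 378, 179 and 549.6 in sub, 206, 231 and 407 in low, and 372, 181 and 255 in high. Low was above neg without overlap (2.22 ± 1.70, limma adjusted p = 0.566).

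The proteins these enzymes cut were followed as a list of 20 matrix substrates, of which 17 were tested. Against neg, 12 fell in low and 11 in high, and 1, Fn1, rose in both; against sub, 8 fell in low and 8 in high. Of all genes tested, 4.69%, 4.69%, 0.744% and 0.986% passed in these 4 comparisons. Median log2 differences over the list were -6.55, -5.50, -6.14 and -5.10 in that order, beside 0, 0.13, 0 and 0.20 over all genes. These medians too describe genes that reached the mean limit, which several, such as Fbn1 and Lum, did through neg and sub alone. Col4a1, a basement membrane collagen, went from means of 14790 in neg and 9280 in sub to 2187 in low and 1309 in high (high minus neg -3.53 ± 0.41 SE, limma adjusted p = 1.73e-05). Fbn1, the fibrillin to which ADAMTS10 and ADAMTS-like proteins bind, read 1035, 2911 and 2166 in neg and 2161, 5316 and 3233 in sub, but 0, 0.8 and 0 in low, where 0.8 is 1 read. Fn1, fibronectin, went the other way, from 3931, 3754.5 and 1871 in neg to 12638, 10695 and 14597 in sub (2.05 ± 0.25, limma adjusted p = 6.25e-05). Hspg2, perlecan, fell between neg and sub (-1.92 ± 0.28, limma adjusted p = 0.000406), and sub, low and high then overlapped. The Fn1 and Hspg2 calls between neg and sub were lost when only these populations were fitted (limma adjusted p = 0.435 and 0.579). The endothelial, stellate, and fibroblast and smooth muscle sums given above fell along with this list in low and high. Their part in these falls was not tested.

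The regulators of these proteases and the plasmin system were a list of 18 genes, 16 of them tested. Lrp1, the endocytic receptor that clears MMPs and TIMP3 from the cell surface, fell in low and high against both neg and sub. It averaged 17130 in sub against 2174 in low, 7.88-fold (-3.01 ± 0.32 SE, limma adjusted p = 0.000145), and was 5.06-fold lower in low than in neg (-2.41 ± 0.32, limma adjusted p = 9.49e-05). Both calls were lost when only the populations compared were fitted (limma adjusted p = 0.207 against sub and 0.0567 against neg). Plaur, the urokinase receptor, rose in low against neg (7.95 ± 2.14, limma adjusted p = 0.0378), from 0, 0 and 199 in neg to 2358, 2024 and 637 in low. This call was lost in 14 of the 21 alternatives, among them edgeR, DESeq2 and the omission of neg 1, neg 2, sub 2, sub 3 or any low or high library (adjusted p up to 0.243). No other gene of this list passed in any comparison, Furin, the convertase that activates MT-MMP and ADAMTS proenzymes, included: it averaged 1821, 1581, 1240 and 1574 in neg, sub, low and high.

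Of 14 ADAM and astacin genes, 11 were tested. Adam23, an ADAM without protease activity, fell in low and high against neg, from 23938, 20988 and 11309 in neg through 4818, 2865 and 845 in sub to 43.0, 29.7 and 0 in low and 53.6, 554 and 0 in high (low minus neg -10.66 ± 1.91 SE, limma adjusted p = 0.00215; high minus neg -9.16 ± 1.91, adjusted p = 0.00721). The call for low was lost without neg 1 or neg 2 (adjusted p = 0.0533 and 0.0502), and that for high without any 1 neg library, high 1 or high 3 (adjusted p from 0.0583 to 0.0926). Both calls were also lost when only the populations compared were fitted (limma adjusted p = 0.0575 for low and 0.134 for high). No other gene of this list passed. Adam10, a sheddase found on most cells, averaged 2425, 1753, 1023 and 2529 in the 4 populations, and Adam9, another sheddase, averaged 925, 1159, 411 and 596.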

How the data were processed

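Total RNA-seq libraries (SMARTer Stranded Total RNA Pico v2, DNase for 30 min) were deposited by the authors as 1 table of normalised counts per gene, a signal that is not whole-numbered. Salmon, DESeq2 1.26.0 and mm10 are named in the submitters' processing notes; the annotation and the use of strand are not given in the sources used here. In each column, all values were whole multiples (tolerance 0.01) of 1 step, which gave back reads. For 2 libraries, sub 3 and high 2, the step was close to 1.

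Log2(value + 1) was tested with limma 3.58.1 (R 4.3.3, variance trend, 4 populations in 1 fit, two-sided) for genes with a mean of at least 10. The table's columns share a suffix across populations by replicate number, which the labels do not explain; with nothing on separate animals, p-values measure the spread between libraries only. Named with values were genes that passed, genes with a population mean of at least 500, Timp1 to Timp4, Mmp2, Mmp7, Mmp9, Mmp14, Mmp15, and genes without overlap between 2 populations (mean of at least 100 in the higher); for the other lists, genes that passed and the 3 with the highest mean, summarised where many. Members, lists and this rule were chosen with earlier results of these data known. edgeR 4.0.16 and DESeq2 1.42.0 on recovered reads, and other settings, were alternatives. Scripts were tested on simulated counts with a fixed spread and changes only in genes with a mean of at least 100. How the methods behave on genes with zeros in some libraries was not tested. Positions are from GENCODE M21 (GRCm38). The added constant shrinks differences between low values, and where only some libraries of a population are at 0 the log2 difference can exceed that of the means.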

Additional observations from a re-analysis of the deposited data

How the results depend on the processing

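Of 15 differences of the protease and inhibitor genes that passed, tried under 315 alternatives, 242 kept and 73 lost their call, and none reversed. Of the 55 differences recomputed that had not passed, calls were gained 73 times. Genes of the 51 called between sub and neg numbered 0 in the fit of the compared populations alone and 2 with DESeq2. For low against neg the count of 5 became 2 with a pseudocount of 0.5, without a filter, with the replicate block and with edgeR, 8 with a mean of at least 100, 0 with the compared populations alone and 11 with DESeq2. For high against neg DESeq2 gave 11. For low against sub the count was 2 with a pseudocount of 5 or a mean of at least 100, 0 with the compared populations alone and 9 with DESeq2; for high against sub it was 0 and 10 with the last 2, and for high against low 5 with DESeq2. Leaving out 1 library gave 2 to 3, 2 to 5, 4 to 6, 0 to 4, 2 to 4 and 0 to 1 genes for sub against neg, low against neg, high against neg, low against sub, high against sub and high against low. Over all genes, in that order, the omissions gave 149 to 317, 465 to 737, 467 to 797, 42 to 170, 74 to 245 and 0 to 35. The compared populations alone gave 0, 203, 341, 0 and 8 for the first 5, and DESeq2 1632, 2294, 2216, 1586, 1493 and 684. High against low was 1 without a filter, 1 with the block and 34 with edgeR. Fewer residual degrees of freedom accompany the fits of compared populations alone; the other causes were not tested. No pairing by replicate number was established: 18 same-numbered pairs correlated at -0.0161 to 0.0266 (mean 0.00881, against -0.00439 for other pairs), none over 0.1, though 8 of 12 libraries were closest to their own number, a hint from the data and not the design. With the replicate block, the other member counts stayed at 1, 5, 1, 3 and 0.

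Among the differences recomputed, those that changed sign were of Adamts9, Mmp14, Timp3 and Adamts1, none of them called. With 1 library left out, low minus sub ranged from -0.22 to 0.12 for Adamts9 (above 0 without sub 1 or low 2) and from -0.41 to 0.20 for Mmp14 (above 0 without sub 1). Adamts9 low minus sub was 0.03 without low 2. Adamts9 high minus sub ranged from -0.20 to 0.15, at 0.14 without high 3 and 0.15 without sub 1, and was 0.02 with edgeR. Adamts9 high minus low ranged from -0.08 to 0.22, below 0 without low 2, high 1 or high 2 (-0.06). Timp3 high minus low ranged from -0.41 to 0.44, above 0 without low 3 or high 3 (0.18), and Adamts1 high minus low from -0.25 to 0.27, below 0 without low 1 or high 2 (-0.16). With 3 libraries a population and 383 of 612 values at 0, only the 6 genes above 0 throughout have errors of the size seen for Timp3, Mmp14 or Adamts1, apart from Adamtsl4 (SE of 1.70).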
